A study of Mus musculus with 34 samples.

Results

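Acat2, Hmgcs1, Idi1, Fdps, Fdft1, Sqle, Lss and Cyp51 are 8 genes that encode enzymes of the cholesterol synthesis pathway. They were taken by gene symbol from the tables of 2 mouse tissues. All 8 were among the 15145 genes of the adipose table, and 7 were among the 13238 genes of the heart table, where Idi1 was not analysed. Every one of them passed the filter on low counts. On GRCm38 the genes lie at chr17:12942890-12960747 (Acat2), chr13:119690379-119708260 (Hmgcs1), chr13:8885501-8892451 (Idi1), chr3:89093588-89101959 (Fdps), chr14:63145150-63179578 (Fdft1), chr15:59315077-59331192 (Sqle), chr10:76531588-76557138 (Lss) and chr5:4081145-4104746 (Cyp51). The genes were grouped under the heading of cholesterol synthesis and uptake, but none of the 8 takes up cholesterol, so they are called synthesis genes here.

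RNA sequencing was done on adipose tissue and heart of C57BL/6J mice aged 20 to 22 months, and the design names 18 mice. HFCD+FMD mice ate a high fat, high calorie diet (HFCD, with 60% of its calories from fat) that was interrupted every 4 weeks by a fasting mimicking diet (FMD) lasting 5 days, and from cycle 6 these fasts were followed by 2 days on the control diet. HFCD mice ate that diet without the fasts, and control mice ate a diet with 10% of its calories from fat. Tissue was taken after 11 cycles, 4 days after the last one ended. In adipose tissue there were 6 HFCD+FMD, 4 HFCD and 3 control libraries. In heart there were 4 HFCD+FMD, 5 HFCD and 5 control libraries. The adipose depot and the sex of the mice are not given in the sources used here. The labels do not tie a library to an animal, so p-values measure the spread between libraries, which may be partly technical.

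Cholesterol is built in the cytosol and endoplasmic reticulum from acetyl-CoA by way of mevalonate, isoprenoid diphosphates, squalene and lanosterol. When membranes run short of sterol, the escort protein Scap carries the transcription factor SREBP-2 (encoded by Srebf2) to the Golgi, where it is cut and set free to switch on the synthesis genes. Insig proteins hold it back when sterol is plentiful. White adipose tissue makes little cholesterol compared with liver but stores a large pool of it, much of it in fat droplets. Acat2 in the mouse is the cytosolic thiolase that joins acetyl-CoA units, and must not be confused with the sterol acyltransferase Soat2, which older texts call ACAT2. Hmgcs1 joins a further acetyl unit on the way to mevalonate. Idi1 isomerises the isoprenoid building block, Fdps joins such blocks into farnesyl diphosphate, and Fdft1 joins farnesyl units into squalene. Sqle oxidises squalene, Lss closes it into the ring system of lanosterol, and Cyp51 removes a methyl group from lanosterol.

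Promoter windows of 300 bases were matched for 5 of the 8 genes (Acat2, Hmgcs1, Idi1, Lss and Cyp51) in RefSeq on GRCm38.p6. The stretch from 140 to 51 bases before the start is shown for Hmgcs1, which moved up under HFCD in adipose tissue, and for 3 genes that moved down there. Each is written 5′ to 3′ on the gene's own strand. Capitals mark the letters TCACNCCAC (a form of the sterol regulatory element that SREBP proteins bind), CCAAT (bound by NF-Y) or GGGCGG (bound by Sp1), on either strand. The regions are chr13:119690211-119690300 (plus strand) for Hmgcs1, chr17:12960776-12960865 (minus strand) for Acat2, chr10:76531465-76531554 (plus strand) for Lss and chr5:4104748-4104837 (minus strand) for Cyp51.
Hmgcs1: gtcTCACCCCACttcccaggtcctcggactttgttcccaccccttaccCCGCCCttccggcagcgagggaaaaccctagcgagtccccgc
Acat2: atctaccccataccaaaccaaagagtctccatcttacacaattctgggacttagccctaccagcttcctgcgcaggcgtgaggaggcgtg
Lss: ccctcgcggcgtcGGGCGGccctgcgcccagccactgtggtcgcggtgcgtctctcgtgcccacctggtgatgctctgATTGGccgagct
Cyp51: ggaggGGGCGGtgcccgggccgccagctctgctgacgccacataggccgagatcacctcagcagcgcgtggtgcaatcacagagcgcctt
Within the whole windows, TCACNCCAC was found only in Hmgcs1 among these 5 genes, 137 to 129 bases before the start, and 1.24% of the 32851 RefSeq windows of this length held it. The looser TCNCNCCAC, which includes the first form, was also found only at that place (6.44% of all windows). CCAAT was found in 4 of the 5 windows (37.4% of all windows), all except Acat2, and GGGCGG in all 5 (35.7%). CACGTG, the palindromic E-box, was found in none of the 5 (7.15%). No other form of the sterol regulatory element was searched, so a window without these letters may still hold such an element. Fdps and Fdft1, which also moved down, had no matched window. These matches describe the letters of these windows and not binding.

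Total counts per library in adipose tissue were 27868228 to 40831656 under HFCD+FMD, 23523322 to 36688935 under HFCD and 15604982 to 28495331 under control. Those in heart were 17050559 to 47859170, 23707218 to 41712499 and 16848195 to 33180337. Several measures of the adipose libraries moved with diet. Mitochondrially encoded genes took 2.2 to 7.47% of the counts under HFCD+FMD, 2.17 to 6.08% under HFCD and 12.6 to 29.3% under control. The 7 macrophage markers summed to 1146 to 3313 CPM under HFCD+FMD, 2112 to 4344 under HFCD and 263 to 1496 under control, and the 5 mesothelial markers to 24.96 to 173.3, 19.86 to 102 and 164.5 to 371. Of these markers 6 of 7 and 0 of 5 rose, and 0 of 7 and 4 of 5 fell, in HFCD against control. The 7 white adipocyte markers, all detected, summed to 16890 to 23750, 21490 to 26020 and 27670 to 44340 CPM, and 3 of them fell and 1 rose in HFCD against control. The 4 markers of dividing cells summed to 45.36 to 196.9 CPM under HFCD+FMD, 74.14 to 136.5 under HFCD and 12.39 to 21.12 under control, and all 4 rose in both high fat groups against control. The 4 endothelial markers summed to 972.2 to 2140, 1071 to 1256 and 692.2 to 850.5 CPM, and 1 of them rose in HFCD against control and 3 in HFCD+FMD against control. The 4 liver markers summed to 9.25 to 53.1, 13.7 to 112.2 and 83.91 to 299.9 CPM, highest in control replicate 3. Of these, 0 passed in HFCD against control and 1 fell in HFCD+FMD against control. The 4 fibroblast markers summed to 3526 to 6119, 3870 to 7659 and 2735 to 5046 CPM, and 2 of them rose in both high fat groups against control. Control replicate 1 stood apart, with 225.3 CPM of brown adipocyte markers and the highest mitochondrial share. The part of these measures in the differences below was not tested. In such bulk tissue, fewer cells of a type and less RNA per cell cannot be told apart.

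Levels were compared between genes per kilobase of exon. In control adipose tissue the mean CPM per kilobase was highest for Hmgcs1 (44.4 ± 15.9, SD, n = 3), followed by Acat2 (32.1 ± 8.89), Fdft1 (20.7 ± 6.42), Cyp51 (13.9 ± 4.16), Lss (9.10 ± 2.95), Sqle (4.02 ± 1.75), Fdps (1.22 ± 0.265) and Idi1 (0.225 ± 0.130). Each neighbouring pair from Hmgcs1 down to Lss differed by less than the sum of their SDs. In control heart Hmgcs1 (6.22 ± 0.727, n = 5) again led, followed by Fdft1 (4.55 ± 1.12) and Cyp51 (2.63 ± 0.376), and Acat2 stood at 0.655 ± 0.174. How many reads reached a gene depends on what else carries its sequence. Of the 50-base words in its transcript, 86.4% were shared with other annotated genes for Fdps, 45.9% for Acat2, 30.7% for Fdft1, 30.5% for Idi1, 13.6% for Hmgcs1, 4.35% for Lss, 3.17% for Cyp51 and 0% for Sqle. Levels of Fdps, Acat2, Fdft1 and Idi1 are therefore uncertain, since the counting program and its use of strand are not given in the sources used here. The main partners were Gm43738 for Fdps, Acat3 for Acat2 and Ctsb, on the opposite strand, for Fdft1.

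HFCD against control in adipose tissue asks what the high fat diet alone did. Acat2, Fdft1, Lss, Fdps and Cyp51 fell, and Hmgcs1 rose. Sqle and Idi1 had negative log2 fold changes that did not pass. The 5 falls spanned 0.293 to 0.553 of the control level, and the rise of Hmgcs1 was 1.63-fold. Thus 6 of the 8 genes passed at an adjusted p of 0.05 or below (edgeR quasi-likelihood test), where 30% of the 15112 genes tested did, 15.7% higher and 14.2% lower. In all 6 the HFCD and control libraries did not overlap, which held for 39.5% of all genes. The median log2 fold change of the 8 genes was -0.94, against 0.00 over all genes. The 8 genes and the lists below were chosen with earlier results of these data known. Their counts and medians beside all genes are therefore descriptions and not independent tests.

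Acat2, at the head of the pathway, moved most. It had 26.5, 29.5, 20.0 and 19.5 CPM in the 4 HFCD libraries, against 99.8, 89.0 and 56.4 CPM in the 3 control libraries. Every HFCD library was thus below the lowest control library, and the log2 fold change was -1.77 (SE 0.23, adjusted p = 0.000564). Fdft1, squalene synthase, had 26.1, 20.9, 37.5 and 29.8 CPM under HFCD, against 107.5, 98.5 and 56.6 CPM under control. Its log2 fold change was -1.61 (SE 0.30, adjusted p = 0.00311), and Ctsb, which shares part of its exons on the other strand, had a log2 fold change of 0.54 that did not pass (adjusted p = 0.0971). Lss, which forms lanosterol, had 41.5, 51.5, 37.8 and 30.9 CPM under HFCD, against 88.2, 133.8 and 72.6 CPM under control (log2 fold change -1.28, SE 0.28, adjusted p = 0.00673). Cyp51, the next enzyme, had 29.04, 34, 37.9 and 34.5 CPM under HFCD, against 75.2, 68.2 and 40.5 CPM under control (-0.85, SE 0.19, adjusted p = 0.00713). For Lss and Cyp51 control replicate 5 lay nearest to the HFCD libraries without overlapping them. Akap9, which shares 166 exon bases with Cyp51 on the other strand, had a log2 fold change of -0.31 that did not pass (adjusted p = 0.0525). Tcp1, which shares 13.2% of the 50-base words of Acat2, had -0.13 (adjusted p = 0.371).

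Fdps was counted far lower, at 2.85, 2.81, 2.69 and 2.00 CPM under HFCD, against 4.94, 6.36 and 4.16 CPM under control. Its log2 fold change was -0.99 (SE 0.30, adjusted p = 0.0263), and it no longer passed without HFCD replicate 4, control replicate 1 or control replicate 3 (adjusted p = 0.0624, 0.0621 and 0.107). Sqle had 14.4, 14.2, 16.98 and 12.3 CPM under HFCD, against 17.6, 33.5 and 15.8 CPM under control. Control replicate 3 was about double the other control libraries and the groups overlapped. The fitted difference was -0.63 on the log2 scale (SE 0.24, adjusted p = 0.0644). Idi1 was counted at 5 to 30 reads per HFCD library and 7 to 29 per control library, with 0.745, 0.334, 0.390 and 0.208 CPM against 0.678, 1.29 and 0.400 CPM (log2 fold change -0.89, SE 0.50, adjusted p = 0.195).

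**Figure D1:**
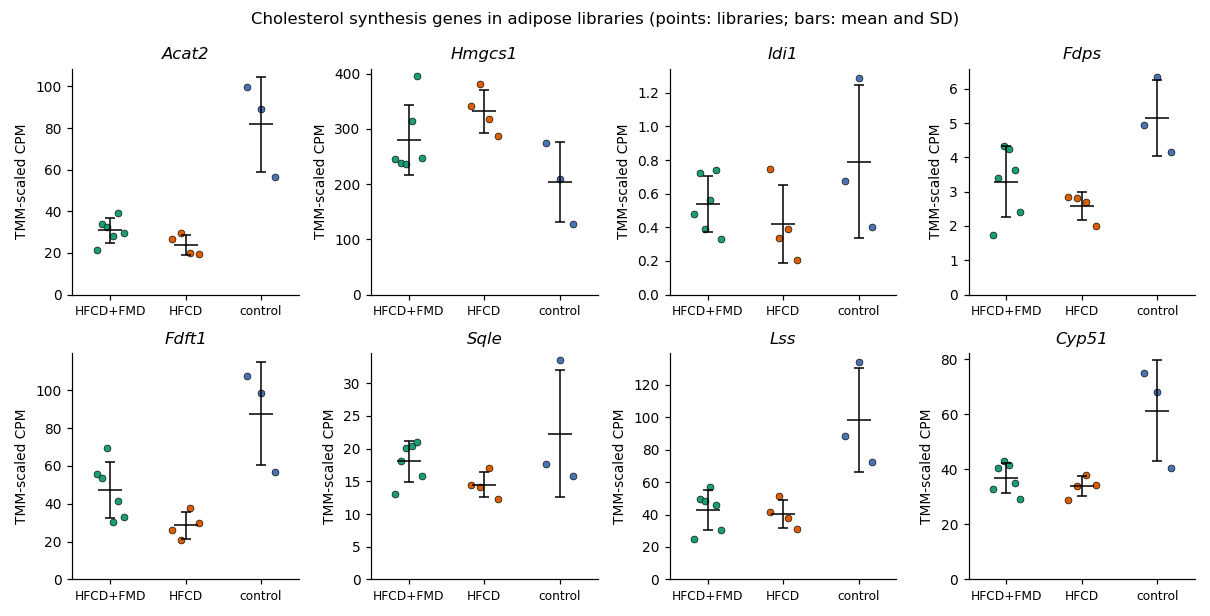
TMM-scaled CPM of the 8 synthesis genes in adipose tissue by diet, with 1 point per library and bars for the mean and SD (6 HFCD+FMD, 4 HFCD and 3 control libraries). Acat2, Fdft1, Lss, Fdps and Cyp51 are lower in every HFCD library than in any control library, and Hmgcs1 is higher in every HFCD library.

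Hmgcs1 went the other way. It had 342, 381, 317 and 286.5 CPM in the HFCD libraries, against 274, 209.7 and 128.5 CPM in the control libraries, so that the lowest HFCD library lay just above the highest control library. The log2 fold change was 0.70 (SE 0.24, adjusted p = 0.0456). This call was fragile: it was kept in 3 of the 13 fits that left out 1 library, with adjusted p up to 0.146 and log2 fold changes of 0.46 to 0.98. Leaving out any HFCD library, control replicate 3 or 5, or HFCD+FMD replicate 1, 2, 3 or 6 ended it.

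The ratio of Hmgcs1 to Acat2 CPM within a library was picked after the values were seen and is given as a description. It was 6.98 to 11.5 in the 6 HFCD+FMD libraries, 12.9 to 15.9 in the 4 HFCD libraries and 2.28 to 2.74 in the 3 control libraries of adipose tissue. The 3 diets did not overlap on this ratio, although they did on the level of Hmgcs1 itself. It was 1 of 7 ratios of Hmgcs1 to another of the 8 genes, and in the other 6 the HFCD+FMD libraries overlapped the HFCD libraries, for example at 3.43 to 10.4 against 8.45 to 18.2 for Fdft1 and 11.8 to 18.9 against 18.7 to 26.9 for Sqle. In heart the ratio was 18.1 to 31.8 under HFCD+FMD, 12.6 to 40.2 under HFCD and 13.1 to 24.2 under control, and all 3 diets overlapped.

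**Figure D2:**
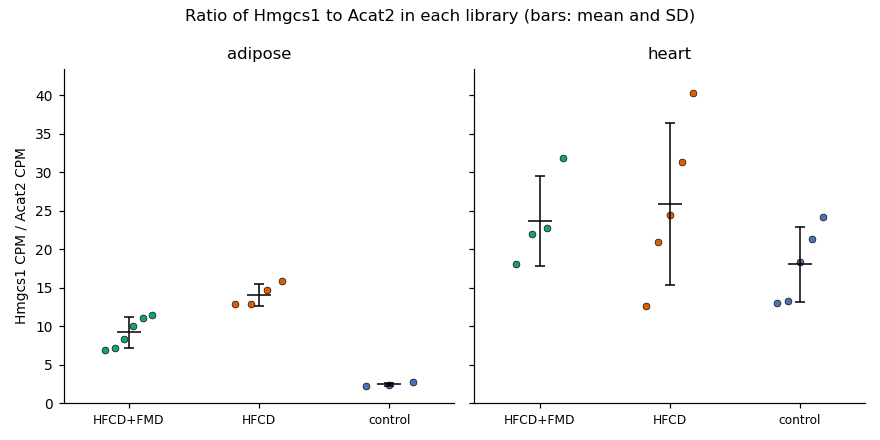
Ratio of Hmgcs1 CPM to Acat2 CPM in each library of adipose tissue and heart, with bars for the mean and SD. In adipose tissue the HFCD+FMD libraries (6.98 to 11.5) lie between the HFCD libraries (12.9 to 15.9) and the control libraries (2.28 to 2.74), and in heart the diets overlap. Of the 7 ratios of Hmgcs1 to another synthesis gene in adipose tissue, this one alone separates HFCD+FMD from HFCD.

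HFCD+FMD against HFCD in adipose tissue asks what the fasting cycles added. None of the 8 genes passed by edgeR (0.205% of all genes did), and in none did the groups stand apart (3.34% of all genes). An unadjusted p below 0.05 was found for 1 of the 8, and for 1693 of the 15112 genes tested. DESeq2 and limma voom called none of the 8 either. The log2 fold changes were positive in 7 of the 8, with a median of 0.33 against 0.01 over all genes. The lowest p was that of Fdft1, which had 30.3, 47.6 and 69.2 CPM as the lowest, median and highest of the HFCD+FMD libraries, against the 4 HFCD values above. It stood 0.73 higher on the log2 scale without passing (SE 0.26, adjusted p = 0.324), and the groups overlapped. Acat2 had a log2 fold change of 0.37 (SE 0.19), Fdps 0.35 (SE 0.26), Idi1 0.34 (SE 0.42), Sqle 0.32 (SE 0.21), Cyp51 0.13 (SE 0.16) and Lss 0.08 (SE 0.24). Hmgcs1 had the single negative value, -0.24 (SE 0.20). These misses do not show that both diets gave equal levels.

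HFCD+FMD against control in adipose tissue shares its control libraries with the first comparison. Acat2, Lss, Cyp51 and Fdft1 fell, 4 of 8 genes, where 19.7% of all genes passed, 10.5% higher and 9.25% lower. Acat2 had 21.4, 31.1 and 39.4 CPM as the lowest, median and highest of the HFCD+FMD libraries, against at least 56.4 CPM in control libraries (log2 fold change -1.40, SE 0.20, adjusted p = 0.00226). Lss had 24.7, 47.4 and 56.8 CPM against at least 72.6 CPM (-1.20, SE 0.26, adjusted p = 0.0100). Acat2 and Lss were the 2 genes whose groups did not overlap, as in 21% of all genes. Cyp51 had 29.3, 37.7 and 43.1 CPM, and its highest libraries passed the 40.5 CPM of control replicate 5 (-0.72, SE 0.18, adjusted p = 0.0163). Fdft1 overlapped likewise (-0.89, SE 0.27, adjusted p = 0.0371). Fdps (-0.64), Idi1 (-0.55), Sqle (-0.31) and Hmgcs1 (0.46) did not pass, with adjusted p-values of 0.109, 0.409, 0.337 and 0.165. The HFCD+FMD libraries held 1.73, 3.52 and 4.34 CPM of Fdps and 237, 247 and 396 CPM of Hmgcs1 as lowest, median and highest. Without control replicate 1 the count of genes that passed was 2 (Acat2 and Lss), and without control replicate 3 it was 1 (Acat2). Fdft1 did not pass without HFCD+FMD replicate 4, 5 or 6 either.

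**Figure D3:**
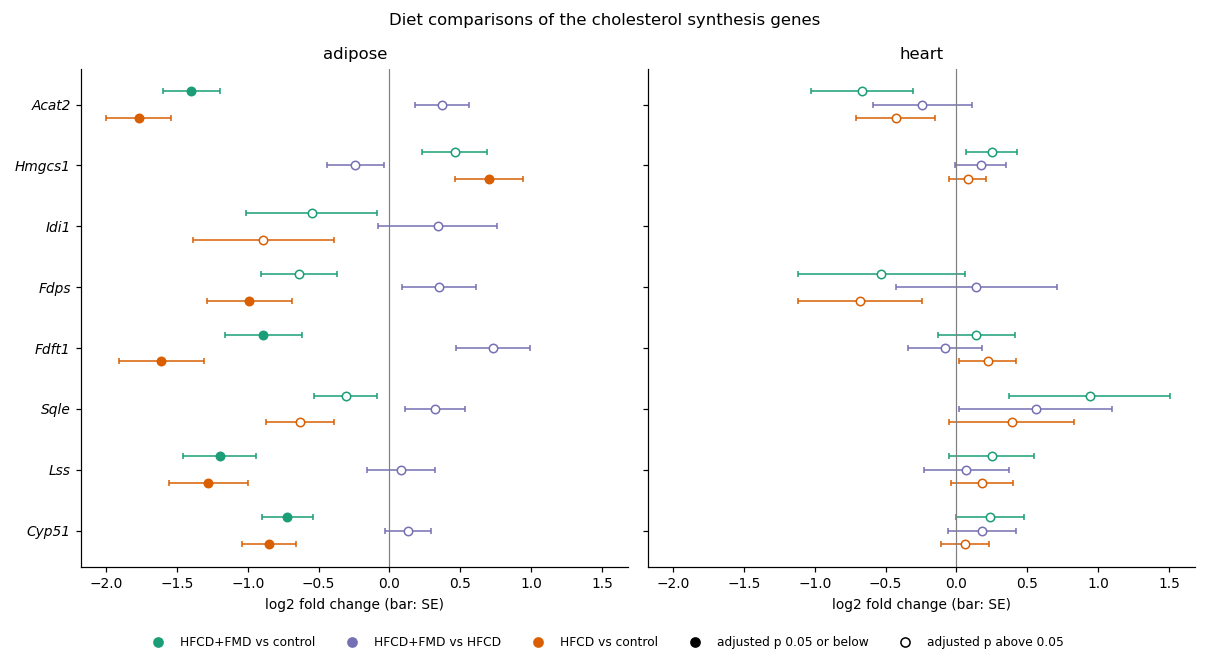
Log2 fold changes (points) with their SE (bars) of the 8 synthesis genes for HFCD+FMD against control, HFCD+FMD against HFCD and HFCD against control, in adipose tissue and in heart. Filled points passed at an adjusted p of 0.05 or below: in adipose tissue 4, 0 and 6 genes, and in heart 0 in each comparison.

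The other genes of sterol handling in adipose tissue were read from the same fit. Of 11 further synthesis genes, 4 fell and 0 rose in HFCD against control, with a median log2 fold change of -0.49. Over all genes 14.2% were called lower and 15.7% higher in this comparison, 30% in all, which is the background for each list count here. Those that fell were Tm7sf2, a sterol reductase (4.41 ± 1.28 CPM in HFCD and 15.5 ± 3.62 CPM in control, SD, n = 4 and n = 3; log2 fold change -1.81), Nsdhl, which works after Cyp51 (-1.41), Pmvk, which phosphorylates mevalonate further (-1.06), and Dhcr7, the last reductase of one branch (-0.49, adjusted p = 0.0453). Among 9 regulators, Srebf2 rose (49.8 ± 6.995 CPM in HFCD and 34.9 ± 6.44 CPM in control, log2 fold change 0.51, adjusted p = 0.0390) and none fell. Srebf1, the related factor of fatty acid genes, and Insig1 had log2 fold changes of -0.25 and -0.16 (adjusted p = 0.553 and 0.778). Srebf2 passed in 7 of the 13 fits without 1 library, and Dhcr7 in 6, and control replicates 1 and 3 were each needed for both. With limma voom neither passed (adjusted p = 0.0573 for Srebf2 and 0.0672 for Dhcr7), nor did Dhcr7 with age as a covariate (adjusted p = 0.0571).

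Of 7 genes of uptake and transport, 4 rose and 0 fell in HFCD against control, with a median log2 fold change of 0.74. They were Stard4, a sterol carrier (1.0), the lipoprotein receptors Lrp1 (0.97) and Vldlr (0.74), and Npc1, which moves cholesterol out of lysosomes (0.74). Of 9 genes of efflux, esterification and removal, 5 rose and 0 fell, with a median of 1.71: Nceh1, a cholesteryl ester hydrolase (2.89), Lipa, the lysosomal acid lipase (2.07), Soat1, which esterifies cholesterol (1.93), the exporter Abcg1 (1.71) and Apoe (0.69). Apoe passed in 5 of the 13 fits without 1 library and not with only the compared diets in the model (adjusted p = 0.0794), Lipa and Soat1 did not pass without control replicate 1 (adjusted p = 0.0504 and 0.0601), and Npc1 did not pass without HFCD replicate 4 or control replicate 3. Macrophages are rich in several of these, and the macrophage markers given above rose in the same libraries; their part was not tested. All 12 genes of fatty acid synthesis fell, with a median of -2.68, among them Elovl6 (-5.87), Acaca (-4.01), Thrsp (-3.18) and Me1 (-2.57).

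**Figure D4:**
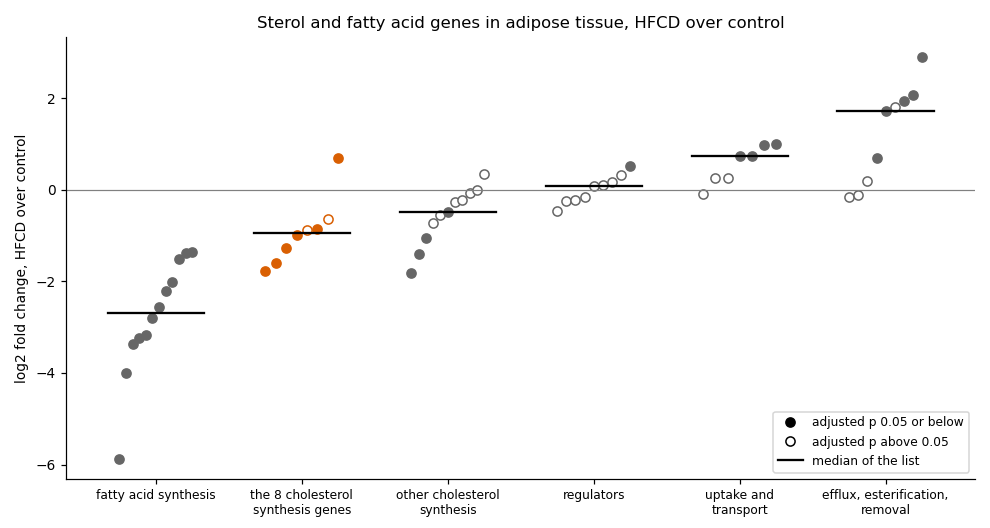
Log2 fold changes of HFCD over control in adipose tissue for genes of fatty acid synthesis, the 8 cholesterol synthesis genes (orange), other cholesterol synthesis, its regulators, uptake and transport, and efflux, esterification and removal. Each point is a gene, filled where the adjusted p was 0.05 or below, and lines are medians, which run from -2.68 for fatty acid synthesis to 1.71 for efflux, esterification and removal.

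In HFCD+FMD against HFCD no gene of these 5 lists passed. Srebf2 had a log2 fold change of 0.10, Srebf1 0.34 and Insig1 0.51, with adjusted p-values of 0.577 to 0.842. In HFCD+FMD against control, where 10.5% of all genes were called higher and 9.25% lower, the lists gave 0 rises and 3 falls for other synthesis (Tm7sf2 -1.62, Nsdhl -1.20 and Pmvk -0.94), 1 and 1 for regulators (Srebf2 0.61 and Insig2 -0.59), 2 and 1 for uptake and transport (Stard4 1.10 and Lrp1 0.73, with Npc2 at -0.48), 3 and 0 for efflux, esterification and removal (Nceh1 1.93, Abcg1 1.20 and Apoe 1.01), and 0 and 8 for fatty acid synthesis (Elovl6 -4.19, Scd1 -2.16, Acss2 -2.14 and Me1 -2.12). Insig1 (0.35) and Srebf1 (0.09) did not pass there, with adjusted p-values of 0.497 and 0.839. With age as a covariate Insig2, Npc2 and Nceh1 did not pass (adjusted p = 0.05002, 0.0655 and 0.0512), with only the compared diets Npc2 and Nceh1 did not (adjusted p = 0.0663 and 0.0828), and with limma voom Nceh1 did not (adjusted p = 0.142). Insig2, Npc2 and Nceh1 passed in 6, 5 and 6 of the 13 fits without 1 library, and each other gene just named outside fatty acid synthesis except Stard4 failed without control replicate 1 or 3.

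Within a diet most of the 8 genes varied together in adipose tissue, and Fdft1 followed the others least. After the diet means were removed, the log2 CPM of 27 of the 28 pairs of genes correlated positively over the 13 libraries, with a median Pearson r of 0.52 (range -0.01 to 0.94). With the mean of the other members, Fdft1 had an r of 0.22 and the other 7 genes had 0.58 to 0.79, and Fdft1 was near 0 with Hmgcs1 (0.05), Fdps (0.06) and Lss (-0.01). These libraries share their depth and tissue makeup, and the values are a description. The same count over pairs of other genes was not made, so this one has no background here. In heart 8 of 21 pairs were positive over 14 libraries, with a median of -0.14. The genes whose deviations followed the mean of the 8 most closely in adipose tissue were Mvd (r = 0.93 over 13 libraries), which makes the isoprenoid building block, then Rtel1, Aldoa and N6amt1 (0.91 each). Pmvk stood ninth (0.88).

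In heart none of the 7 genes passed in any comparison, and none had an unadjusted p below 0.05. In HFCD against control 0% of 13230 genes passed by edgeR, though 1687 had an unadjusted p below 0.05. In HFCD+FMD against HFCD 0.106% passed and 1454 had such a p, and in HFCD+FMD against control 0.0227% and 1254. Nor did the diets stand apart in any of the 7, where 7.19%, 4.65% and 9.02% of all genes did so in these 3 comparisons. The 7 genes had median log2 fold changes of 0.08, 0.14 and 0.24 in these comparisons, in that order. The heart libraries fall into 3 sets that share a term removed from the authors' values, and the sets were a factor in the fit. HFCD+FMD replicates 2, 3 and 5 share their set with HFCD replicate 5 alone, and HFCD+FMD replicate 1 shares its set with control replicates 4 and 6, so HFCD replicate 5 and HFCD+FMD replicate 1 alone tie that diet to the others. The 5 ventricular cardiomyocyte markers, all detected, summed to 38840 to 45810 CPM under HFCD+FMD, 23750 to 33220 under HFCD and 32810 to 53580 under control. The 4 atrial markers summed to 2134 CPM in HFCD replicate 5, 676.3 CPM in HFCD replicate 3 and 30.1 CPM or less in the other HFCD libraries, with at most 25.5 CPM under HFCD+FMD and 124.5 CPM under control, and mitochondrially encoded genes took 21.8 to 71.5% of the heart counts. The part of these measures was not tested.

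Hmgcs1 was the most evenly counted member in heart, with 30.0, 33, 35.7 and 36 CPM under HFCD+FMD, 25.6, 31.0 and 31.6 CPM as the lowest, median and highest of 5 HFCD libraries, and 23.4, 29.3 and 31.6 CPM likewise under control. Its log2 fold changes were 0.25 (SE 0.18) for HFCD+FMD against control, 0.17 (SE 0.18) for HFCD+FMD against HFCD and 0.08 (SE 0.13) for HFCD against control. Acat2 was near 1 CPM, at 1.36, 1.45, 1.98 and 1.13 CPM under HFCD+FMD, 1.16, 0.785, 1.51, 0.987 and 2.03 CPM under HFCD and 1.80, 1.59, 2.36, 1.28 and 1.30 CPM under control. Within the set that holds HFCD replicates 1 to 4 and control replicates 2, 3 and 5, Acat2 had 0.785 to 1.51 CPM under HFCD against 1.28 to 1.80 CPM under control, and these overlapped. Its log2 fold change in HFCD against control was -0.43 (SE 0.28, adjusted p = 0.477).

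Fdft1 had 19.2 to 33.6 CPM under HFCD+FMD, 19.5 to 30.6 under HFCD and 16.5 to 27.6 under control, and Cyp51 had 11.0 to 16.1, 8.72 to 13.2 and 10.1 to 13.8. Lss had 1.56 to 2.46, 1.63 to 3.14 and 1.62 to 2.28 CPM. All 3 overlapped between diets. Sqle and Fdps were counted at 7 to 42 and 2 to 47 reads per heart library, so the precision for both is low. The largest fitted change among the 7 was that of Sqle, 0.94 on the log2 scale for HFCD+FMD against control (SE 0.57, adjusted p = 0.628), with 0.440 to 1.39 CPM against 0.318 to 0.707 CPM. Of the other genes of the pathway none of the 5 lists held one that passed in heart. In HFCD against control there, Srebf2 had a log2 fold change of -0.12, Srebf1 -0.17 and Insig1 0.48, with adjusted p-values of 0.367 to 0.795. In HFCD+FMD against HFCD the same 3 genes had -0.05, -0.01 and -0.37, and in HFCD+FMD against control -0.17, -0.19 and 0.11, in that order.

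**Figure D5:**
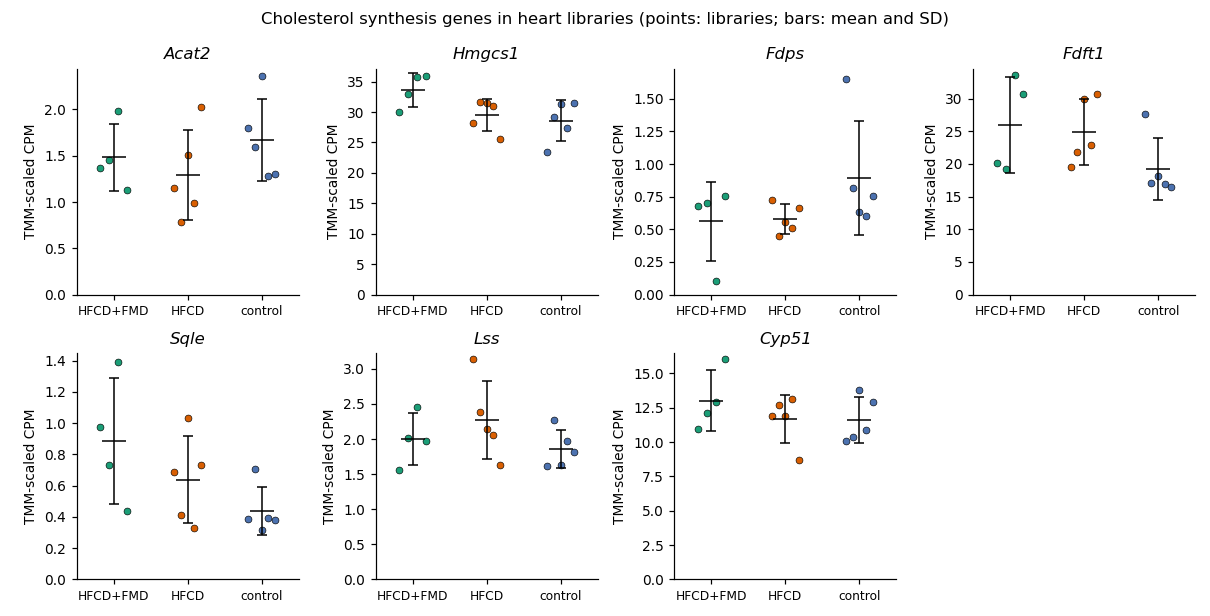
TMM-scaled CPM of the 7 synthesis genes measured in heart by diet, with 1 point per library and bars for the mean and SD (4 HFCD+FMD, 5 HFCD and 5 control libraries). The diets overlap for every gene, for example Hmgcs1 at 30.0 to 36, 25.6 to 31.6 and 23.4 to 31.6 CPM.

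Whether the diets differed by another amount in adipose tissue than in heart was tested as an interaction over all 27 libraries. Unlike the fit of heart alone, this fit had no factor for the heart library sets. With that factor, Acat2 had a log2 fold change of -0.67 in heart for HFCD+FMD against control, beside -1.40 in adipose tissue. The part of the sets in the differences below was not tested. For HFCD against control, 4 of 7 genes passed, where 22% of 12606 genes did. The difference, adipose minus heart, was -1.96 on the log2 scale for Fdft1 (SE 0.37, adjusted p = 0.000974), -1.54 for Lss (SE 0.34, adjusted p = 0.00282), -1.39 for Acat2 (SE 0.35, adjusted p = 0.00761) and -0.85 for Cyp51 (SE 0.24, adjusted p = 0.0159). Hmgcs1, at 0.67, did not pass (adjusted p = 0.0547), though it did with limma voom (adjusted p = 0.0425). For HFCD+FMD against control the same 4 genes passed, where 17.1% of all genes did, with differences of -1.31 for Fdft1, -1.30 for Lss, -1.23 for Acat2 and -0.90 for Cyp51. Sqle, at -1.21, did not pass (adjusted p = 0.0506), though it did with RLE scaling and with DESeq2 (adjusted p = 0.0450 and 0.0249). Cyp51 did not pass for HFCD against control without adipose control replicate 1 (adjusted p = 0.0719). For HFCD+FMD against control the count was 1 without adipose control replicate 1, and without adipose control replicate 3 it was 2. For HFCD+FMD against HFCD none passed by edgeR (0.0159% of all genes did, 2 genes). There 0 of the 7 had an unadjusted p below 0.05, and 1098 of the 12606 genes did. The 27 libraries outnumber the 18 mice, so some mice must have given more than 1 library. The labels do not say which, and the fit treated the libraries as independent, so the p-values of this test do not allow for shared mice.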

How the data were processed

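Libraries were made from total RNA after ribosomal RNA removal (KAPA RiboErase), per the labels' protocols. The labels list 34 libraries, 27 have columns, and 7 were not analysed here. The submitters' processing notes name STAR 2.5.3, mm10, R 3.5.3, edgeR and limma. Counting program and annotation are not given in the sources used here. Raw counts per gene, as whole numbers, and log2 CPM were deposited by the authors, the heart log2 values with 1 term per gene removed within each of 3 library sets, found by comparing the deposited tables. All per-sample columns were used (0 left out).

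Counts were fitted per tissue in R 4.3.3 with edgeR 4.0.16 (TMM, filterByExpr on diet, robust quasi-likelihood F-test, two-sided, all diets in 1 model, the library sets as a factor in heart). The interaction between tissue and diet was fitted over both tissues with no set factor. Benjamini-Hochberg adjustment ran over every gene tested, with calls at 0.05. Log2 fold changes are fitted values, with SE from the F statistic, and CPM values are TMM-scaled. The fit was tested on simulated data. Positions and exon lengths came from GENCODE on GRCm38, the files' build. Replicate numbers only name libraries.

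Alternatives were RLE scaling, DESeq2 1.42.0, limma voom (limma 3.58.1), age as a covariate, no filter, a stricter filter (at least 1 CPM in 5 libraries), a model of only the compared diets, limma on the deposited log2 values, a heart model with no set factor, leaving out each library and, chosen after seeing the data, no mitochondrially encoded genes. The 8 genes and all lists were chosen with earlier results of these data known. Named were the 8 genes, some genes that share sequence with them, up to 4 passing genes of each list and comparison by smallest p, and Srebf1, Srebf2 and Insig1. Some genes of the lists are not reported here and were left out of the counts and medians of their lists after values had been seen. Dhcr7, Npc1, Apoe and Npc2 were added after their values were seen, to complete counts. The spread used to judge medians (pooled SD between replicates, 0.29 in adipose tissue and 0.13 in heart) was set after seeing the data.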

Additional observations from a re-analysis of the deposited data

Results flagged for a closer look

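By the interaction test of edgeR, 4 of 7 genes differed between HFCD and control by another amount in adipose tissue than in heart. Of all 12606 genes tested, 22% passed. That test held no factor for the heart library sets, and its p-values do not allow for mice that gave more than 1 library. The differences in log2 fold change, adipose minus heart, were -1.39 for Acat2 (adjusted p = 0.00761), -1.96 for Fdft1 (adjusted p = 0.000974), -1.54 for Lss (adjusted p = 0.00282) and -0.85 for Cyp51 (adjusted p = 0.0159). For HFCD+FMD against control they were -1.23 for Acat2 (adjusted p = 0.0181), -1.31 for Fdft1 (adjusted p = 0.0165), -1.30 for Lss (adjusted p = 0.0115) and -0.90 for Cyp51 (adjusted p = 0.0140). There 17.1% of all genes passed, and without adipose control replicate 1 the count among the 7 genes was 1.

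Of 37 groups of 4 to 6 libraries examined for a library far from its group by Dixon's criterion, 5 held one, all in heart. The adipose control groups, with 3 libraries, were not examined. The CPM values used still held any differences between the heart library sets. Chance gives about 1 in 20 groups. Fdps stood at 0.107 CPM (2 reads) in HFCD+FMD replicate 3, against 0.682 CPM in the nearest library of that diet, and at 1.65 CPM in control replicate 2, against 0.818 CPM. Fdft1 stood at 27.6 CPM in control replicate 2, against 18.2 CPM in the nearest control library. Sqle stood at 0.707 CPM in control replicate 3, against 0.393 CPM, and Cyp51 at 8.72 CPM in HFCD replicate 5, against 11.9 CPM. HFCD replicate 5 was the only HFCD heart library of its set, so its set and the library itself cannot be told apart.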

How the results depend on the processing

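The falls of Acat2, Fdft1, Lss and Cyp51 in HFCD against control in adipose tissue passed in all 13 fits without 1 library and in all 9 other settings tried. Fdps passed in the 9 other settings (adjusted p 0.00806 to 0.0427) and in 10 of the 13 fits. The rise of Hmgcs1 did not pass with only the compared diets in the model (adjusted p = 0.0617) or without mitochondrially encoded genes (adjusted p = 0.0503), and Sqle passed with DESeq2 (log2 fold change -0.64, adjusted p = 0.0420). In HFCD+FMD against control, Fdft1 did not pass with limma voom or with only the compared diets (adjusted p = 0.0524 and 0.0628). The number of the 8 genes passing there was 1 to 4 without 1 library, and the number differing between tissues for HFCD+FMD against control was 1 to 5. The 3 control libraries of adipose tissue, and counts under 50 for Fdps and Sqle in heart, limit what could be seen, and the cause of each change given here was not tested.

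No heart result passed in any setting. In HFCD against control no sign changed in these other settings, for example Acat2 at -0.53 to -0.37 and Fdft1 at 0.18 to 0.37. Signs of several genes did change in the comparisons with HFCD+FMD. Acat2, Fdps, Fdft1 and Sqle kept theirs in HFCD+FMD against control. With only the compared diets and the set factor, HFCD+FMD against control rested on HFCD+FMD replicate 1 against control replicates 4 and 6. HFCD+FMD replicates 2, 3 and 5 were then alone in their set and did not enter the difference. It had log2 fold changes of -0.08 for Hmgcs1, -0.15 for Lss, -0.29 for Cyp51, 0.23 for Srebf2 and a median over the 7 genes of -0.08. With age as a covariate that median was 0.10 and Cyp51 -0.01, and without the set factor Insig1 was -0.31. In HFCD+FMD against HFCD, Fdps was -0.04 with limma voom, -0.25 with only the compared diets, -0.01 without the set factor and -0.15 with the deposited log2 values. The value with only the compared diets rests on HFCD replicate 5, the only HFCD library that shares a set with HFCD+FMD libraries. Srebf1 was 0.00 with limma voom and 0.01 both with age and with the deposited values. Age gave Acat2 0.05, Fdft1 0.02, Cyp51 -0.04 and Srebf2 0.09, and dropping the set factor gave Acat2 0.19, Fdft1 0.06 and Lss -0.18.

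Fits without 1 library turned the sign of further values that had not passed. In adipose tissue these ranged as follows: for HFCD against control Insig1 -0.47 to 0.33 and Srebf1 -0.50 to 0.08, for HFCD+FMD against HFCD Lss -0.03 to 0.22, and for HFCD+FMD against control Idi1 -0.90 to 0.05, Sqle -0.51 to 0.11 and Srebf1 -0.16 to 0.41. In heart HFCD against control, Cyp51 ranged over -0.00 to 0.25, Hmgcs1 -0.02 to 0.19, Srebf1 -0.34 to 0.04 and the median of the 7 genes -0.00 to 0.19. In heart HFCD+FMD against HFCD, Acat2 ranged over -0.43 to 0.10, Cyp51 -0.54 to 0.65, Fdft1 -0.18 to 0.05, Fdps -0.25 to 0.82, Hmgcs1 -0.26 to 0.45, Lss -0.46 to 0.39, Srebf1 -0.13 to 0.14 and Srebf2 -0.41 to 0.53. In heart HFCD+FMD against control, Cyp51 ranged over -0.29 to 0.91, Hmgcs1 -0.08 to 0.64, Lss -0.15 to 0.71, Srebf2 -0.70 to 0.23 and the median -0.08 to 0.35, with the lowest of each but Srebf2 in the fit without HFCD replicate 5. That fit is no separate check from the one with only the compared diets. Both rest on HFCD+FMD replicate 1 against control replicates 4 and 6, and they gave the same values for these genes. Differences between tissues ranged over -0.09 to 0.30 for Acat2, -0.13 to 0.07 for Cyp51 and -0.42 to 0.08 for Sqle in HFCD+FMD against HFCD, and over -0.39 to 0.15 for Fdps and -0.03 to 0.48 for Hmgcs1 in HFCD+FMD against control.

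Of 138 alternative medians, 1 kept its sign and moved by more than the pooled SD between replicates. By the narrower SD over the fits without 1 library, 23 kept their sign and moved. Medians that changed sign are not in these counts. They were that of heart HFCD+FMD against control, -0.08 instead of 0.24 with only the compared diets and without HFCD replicate 5. The median of heart HFCD against control also turned, to -0.00 from 0.08, without control replicate 2. No paired analysis was possible because the labels give no replicate numbers that diets share.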
